A study of Mus musculus with 7 samples.

Results

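The complement genes of the infarcted heart were followed in myocardial RNA of male wild-type C57BL/6J mice, an inbred laboratory strain, which were 8 weeks old when obtained. Of the 56980 genes in the table, 9 genes of the complement system were taken as a list: C1qa, C1qb, C1qc, C1ra, C3, C4b, Serping1, C3ar1 and C5ar1. They were found by gene symbol and each matched 1 identifier. In 3 mice (MI replicates 1 to 3) the left coronary artery was ligated, and 4 mice (sham replicates 1 to 4) were operated on in the same way without ligation. Tissue was taken 4 days later, and each mouse gave 1 library of total RNA. The labels call the tissue myocardium, and the study speaks of ischemic tissue in the MI mice without giving how much of each piece was infarct. Values are FPKM, the fragments counted on a gene, scaled by gene length and by library size.

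Complement is a cascade of plasma proteins that tags damaged cells and microbes for removal. In its classical pathway the C1q molecule, built from A, B and C chains, binds a surface or an antibody and activates the proteases C1r and C1s, which cleave C4 and C2. The resulting enzyme splits C3, the protein on which all pathways meet, into C3b, which coats the target, and the small peptide C3a. Further cleavage of C5 releases C5a and starts the membrane attack complex. C3a and C5a act through the receptors C3aR1 and C5aR1 on leukocytes. C1 inhibitor, the product of Serping1, blocks C1r and C1s and also proteases of the contact and coagulation systems. Liver makes most of the complement in plasma, whereas tissue macrophages are a main source of C1q, and fibroblasts and other stromal cells also make C1r, C1s, C3, C4 and C1 inhibitor. In the heart, complement is known for its activation in tissue injured by lack of blood flow.

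Depth was similar in all mice, at 19977713 to 23473543 fragments in the sham mice and 21781014 to 23610870 in the MI mice. MI replicate 2 stood apart from the other MI mice. Across the 11431 genes tested, its log2 values correlated with those of the sham mice at r = 0.984 to 0.987. The same range was 0.878 to 0.881 for the first MI mouse and 0.903 to 0.906 for the third (genes are not independent replicates). The main counts and the fold changes of the 9 genes are therefore also given without it. Cardiomyocyte markers were abundant in every mouse, with Myh6, the main heavy chain of cardiac myosin, at 3796 to 4086 FPKM in the sham mice and 1908, 4001 and 2252 in MI replicates 1 to 3. The summed FPKM of 7 cardiomyocyte markers was 0.659, 0.968 and 0.690 times the sham mean in the MI mice. Mitochondrial genes took 26.5% to 27.4% of the fragments in the sham mice and 13.6%, 28.2% and 14.9% in the MI mice, so the same MI mice that were high in complement were low in both. The summed FPKM of 8 macrophage markers was 25.3 to 29.4 in the sham mice and 105, 32.2 and 87.4 in MI replicates 1 to 3, and 4 of the 8 genes had every MI mouse above every sham mouse, as did 16.1% of all genes tested (1 of the 4, Fcgr1, passed the filter described below through the MI mice alone). The summed FPKM of 8 fibroblast markers was 152 to 181 in the sham mice and 2453, 270.4 and 1891 in the MI mice, with 7 of the 8 higher in every MI mouse, against the same 16.1%. Hepatocyte markers summed to 0.873 to 6.47 in the sham mice and 1.66 to 5.18 in the MI mice, and the groups overlapped. The part of these cell types in the results below was not tested, and in bulk tissue more cells of a type cannot be told apart from more RNA per cell.

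The 9 genes lie at 7 places on 5 chromosomes (GRCm38, GENCODE M21). C1qa (chromosome 4, 136895917 to 136898803), C1qc (136889804 to 136893065) and C1qb (136880129 to 136886187) are neighbours on the minus strand. C1ra (124512405 to 124523443, plus strand) and C3ar1 (122847138 to 122856161, minus strand) are both on chromosome 6, and C4b (34728380 to 34743882) and C3 (57203970 to 57228136) both on the minus strand of chromosome 17. Serping1 is on chromosome 2 (84765387 to 84775444) and C5ar1 on chromosome 7 (16246743 to 16259540), both on the minus strand. All 9 are protein-coding, and their exons share 0 bases with any other annotated gene on either strand. Near-identical copies are a limit for C4b and C1ra. Of the 50-base windows of the longest C4b transcript, 35.2% also occur in C4a, and 48.0% of those of C1ra occur in C1rb, so fragments from such stretches may have been assigned to either gene.

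The 250 bases before the start site were read from RefSeq for a recognition chain, for the central component and for a receptor, since these genes differed in how far they stood from sham in the least altered MI mouse. The RefSeq table (GRCm38.p6) held a promoter for 6 of the 9 genes, and none for C1qa, C4b and Serping1. Capitals mark matches on either strand to GAGGAA (PU.1 core), TTGCNNAA (C/EBP), GGGA and CC with any 4 bases between them (NF-kB), TGANTCA (AP-1), a pair of GAAA with any 2 bases between them (ISRE-like) and TTCNNNGAA (GAS). C1qb is shown from chr4:136886201-136886450, C3 from chr17:57228137-57228386 and C3ar1 from chr6:122856158-122856407, each on the minus strand and written 5′ to 3′.
C1qb: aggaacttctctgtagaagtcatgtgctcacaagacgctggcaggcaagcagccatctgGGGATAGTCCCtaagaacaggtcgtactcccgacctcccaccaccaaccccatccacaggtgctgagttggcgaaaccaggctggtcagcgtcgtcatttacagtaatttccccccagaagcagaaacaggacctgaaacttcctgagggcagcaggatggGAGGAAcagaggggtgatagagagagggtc
C3: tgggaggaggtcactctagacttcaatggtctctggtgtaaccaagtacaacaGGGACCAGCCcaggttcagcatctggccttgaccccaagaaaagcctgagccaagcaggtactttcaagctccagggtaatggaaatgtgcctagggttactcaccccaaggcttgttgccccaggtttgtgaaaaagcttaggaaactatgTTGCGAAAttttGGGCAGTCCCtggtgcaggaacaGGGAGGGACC
C3ar1: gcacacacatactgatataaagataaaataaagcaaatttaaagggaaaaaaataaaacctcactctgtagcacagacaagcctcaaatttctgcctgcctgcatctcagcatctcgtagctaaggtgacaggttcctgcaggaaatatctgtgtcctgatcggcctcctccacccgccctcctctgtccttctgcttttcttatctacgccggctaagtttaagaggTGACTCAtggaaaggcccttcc
The C1qb window held GAGGAA 30 bases before the start and 2 overlapping NF-kB matches, 1 on each strand. The C3 window held TTGCGAAA 45 bases before the start and 3 NF-kB matches, and the C3ar1 window held TGACTCA 22 bases before it. Over the 6 genes, 2 held the PU.1 core and 3 the NF-kB letters, against 23.3% and 17.6% of all 32851 promoters of this length. The C/EBP and AP-1 letters were each in 1 of the 6 (9.56% and 6.75% of all promoters), and the ISRE-like and GAS letters in 0 (2.98% and 7.02%). A match describes the letters and is not a measured binding site.

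All 9 genes passed the filter on low values, a minimum FPKM of 1 in 3 or more mice, and none passed through the MI mice alone, since each was above 1 FPKM in every sham mouse. In addition, all 9 had a higher mean in the MI mice. On the log2(FPKM + 1) scale the log2 fold changes ran from 1.16 (C5ar1) to 3.18 (C4b), with a median of 1.77 against 0.21 over all 11431 genes tested. In limma's moderated test, with Benjamini-Hochberg adjustment over all of them, 0 of the 9 reached an adjusted p under 0.05 (adjusted p of 0.108 to 0.110), a threshold that 0.0175% of all genes passed on the higher side and 0.00875% on the lower. At an unadjusted p under 0.05 alone 9 of 9 were higher, where 29.5% of all genes were higher and 9.85% lower. With a log2 fold change over 0.5 asked for as well, 9 of 9 were higher, where 17.8% of all genes were. By that rule 5 of 9 were higher without MI replicate 1 and 5 of 9 without MI replicate 3, where 5.11% and 5.12% of all genes were. For 6 of 9 every MI mouse was above every sham mouse, against 16.1% of all genes. Without MI replicate 2 the log2 fold changes were 1.74 to 3.92 and all 9 passed, at adjusted p-values of 1.38e-06 to 0.000131. In that fit 56.8% of the genes tested passed on the higher side and 14.9% on the lower. MI replicate 2 was left out because its values lay close to sham. Leaving it out raised the fold change and lowered the standard error of all 9 genes. The p-values of that fit are therefore descriptive and are no test of the group difference. With limma's sample weights 9 of 9 were past the threshold, where 66.8% of all genes were higher and 20.3% lower, but MI replicate 3 had a weight of 436.7 there against 0.0906 and 0.0217 for the other MI mice, so in effect the MI group was 1 mouse and the fit is no further support.

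**Figure D1:**
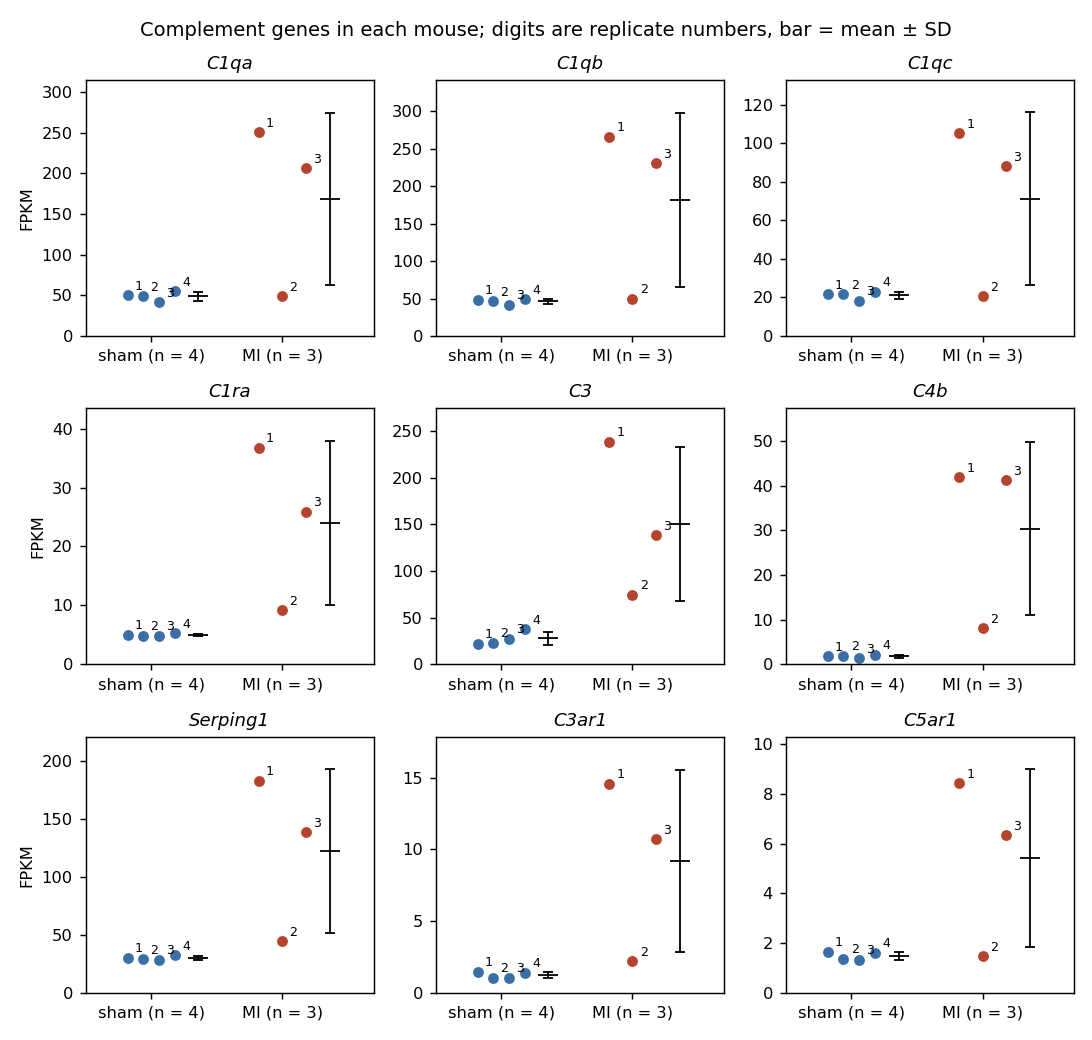
FPKM (vertical axes, from 0) of the 9 complement genes in each sham mouse (blue) and MI mouse (red), with the digit of the replicate beside each point and the mean ± SD beside each group. MI replicates 1 and 3 lie far above the sham mice for every gene, and MI replicate 2 lies at or near the sham level for C1qa, C1qb, C1qc and C5ar1.

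The 3 chains of C1q, the recognition molecule of the classical pathway, had like profiles over the 7 mice. C1qa, the A chain, stood at 49.9, 49.2, 41.2 and 54.8 FPKM in sham replicates 1 to 4 and at 251, 48.7 and 206 in MI replicates 1 to 3. C1qb, the B chain, stood at 48.3, 46.7, 41.5 and 48.9 in the sham mice and at 266, 49.5 and 231 in the MI mice. C1qc, the C chain, stood at 21.6, 21.7, 18.3 and 22.9 in the sham mice and at 105, 20.5 and 88.0 in the MI mice. For all 3 chains MI replicate 1 was highest and MI replicate 3 somewhat lower, while MI replicate 2 lay within the sham range for C1qa and C1qc and just above it for C1qb. The values rest on 924 to 1179 fragments per chain in a sham mouse and on 997 to 6303 in an MI mouse. C1qb went from 46.3 ± 3.37 FPKM (SD, n = 4) to 182 ± 116 (SD, n = 3), and its log2 fold change was 1.63, with a standard error (SE) of 0.54. The log2 fold change was 1.47 (SE 0.52) for C1qa and 1.42 (SE 0.51) for C1qc. Without MI replicate 2 they were 2.21 for C1qa, 2.40 for C1qb and 2.14 for C1qc. The exact two-sided permutation p was 0.0571 for C1qb, the smallest that 3 mice against 4 allow, and 0.229 for each of the other chains. Summed macrophage markers were high in the same mice, at 3.76 and 3.14 times the sham mean in MI replicates 1 and 3. In MI replicate 2 the sum was at 1.16 times, where C1qa, C1qb and C1qc were at 0.998, 1.07 and 0.971 times. Timd4 and Cd163 did not follow that order, whereas the other markers were highest in MI replicate 1 and next in MI replicate 3. Timd4 stood at 0.980 to 1.73 FPKM in the sham mice and at 0.697, 0.752 and 1.09 in MI replicates 1 to 3. Cd163 stood at 3.53 to 4.34 and at 4.73, 5.76 and 4.57.

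C1ra encodes C1r, the protease that C1q binding activates. It was narrow in the sham mice, at 5.05, 4.84, 4.87 and 5.29 FPKM, and stood at 36.8, 9.16 and 25.9 in the MI mice. All 3 MI mice were above the sham range, MI replicate 2 by the least, at 1.83 times the sham mean. From 313 to 341 fragments in a sham mouse and 618 to 2388 in an MI mouse, the log2 fold change was 1.86 (SE 0.40; 2.41 without MI replicate 2) and the exact two-sided permutation p 0.0571.

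C4b, the substrate of C1s and the source of the C4 fragments that build the classical C3-cleaving enzyme, had the highest fold of the 9. It was scarce in the sham mice, at 1.78, 1.93, 1.40 and 2.22 FPKM from 207 to 279 fragments. In the MI mice it stood at 41.9, 8.10 and 41.2 FPKM from 1154 to 6119 fragments. MI replicates 1 and 3 were at 22.9 and 22.5 times the sham mean and MI replicate 2 at 4.42 times, so the groups lay well apart. The mean of the MI mice was 16.6 times that of the sham mice, and the log2 fold change was 3.18 (SE 0.52, unadjusted limma p 0.000421) and 3.92 without MI replicate 2. By this log2 fold change C4b ranked 21 among all 11431 genes tested.

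C3, the component shared by all pathways, varied most among the sham mice relative to its mean. It stood at 22.3, 23.4, 27.6 and 37.8 FPKM in the sham mice and at 238, 74.8 and 138 in the MI mice. All MI mice were above the highest sham mouse, and MI replicate 2 was at 2.69 times the sham mean. The mean was 27.8 ± 7.06 (SD, n = 4) in the sham mice and 151 ± 82.4 (SD, n = 3) in the MI mice, from 2842 to 4290 and 9621 to 29488 fragments. The log2 fold change was 2.27 (SE 0.38, unadjusted limma p 0.000435) and 2.70 without MI replicate 2. Markers of the mesothelium, the cell layer that covers the heart, were high in all 3 MI mice as well. The summed FPKM of 4 markers was 3.35 to 8.17 in the sham mice and 24.7, 17.7 and 37.4 in the MI mice. Of the 4 genes, 4 were higher in every MI mouse, against 16.1% of all genes. One of them, Upk1b, reached 1 FPKM in no sham mouse, so it passed the filter through the MI mice alone and its groups had to differ.

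Serping1, the gene of C1 inhibitor, was already abundant in the sham heart. It stood at 30.1, 28.8, 28.7 and 32.3 FPKM in the sham mice and at 183, 44.6 and 138 in the MI mice. MI replicate 2 was above the sham range, at 1.49 times the sham mean. The mean went from 29.99 ± 1.69 (SD, n = 4) to 122 ± 70.5 (SD, n = 3), a log2 fold change of 1.77 (SE 0.43) that was 2.37 without MI replicate 2. The genes above sham in every MI mouse outside the C1q locus thus included a protease, its inhibitor and both thioester proteins C3 and C4. Beside them, the summed fibroblast markers were 14.8, 1.64 and 11.4 times the sham mean in MI replicates 1 to 3.

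C3ar1, the receptor of C3a, stood at 1.48, 1.06, 1.07 and 1.42 FPKM in the sham mice and at 14.6, 2.22 and 10.7 in the MI mice. Every MI mouse was above the sham range, MI replicate 2 at 1.76 times the sham mean. C5ar1, the receptor of C5a, stood at 1.66, 1.37, 1.33 and 1.61 FPKM in the sham mice and at 8.43, 1.49 and 6.34 in the MI mice. Here MI replicate 2 lay inside the sham range. Beside these receptors of leukocytes, the summed FPKM of 3 monocyte markers was 28.3, 2.41 and 14.8 times the sham mean in MI replicates 1 to 3. Of these, 3 of 3 genes were higher in every MI mouse, as were 16.1% of all genes tested. The sum of 7 neutrophil markers was at 22.0, 0.792 and 11.7 times. Of these, 1 of 7 was higher in every MI mouse, close to that share, and Ly6g was at 0 in all mice. None of these 10 markers passed the filter on low values, so they are not among the genes behind that share. The log2 fold change was 1.90 (SE 0.49) for C3ar1 and 1.16 (SE 0.42) for C5ar1, with exact two-sided permutation p-values of 0.0571 and 0.171. Without MI replicate 2 the log2 fold changes were 2.59 and 1.74. Both receptors were low in the sham mice, from 99 to 207 fragments, and the ratio of means was 7.31 for C3ar1 and 3.63 for C5ar1.

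**Figure D2:**
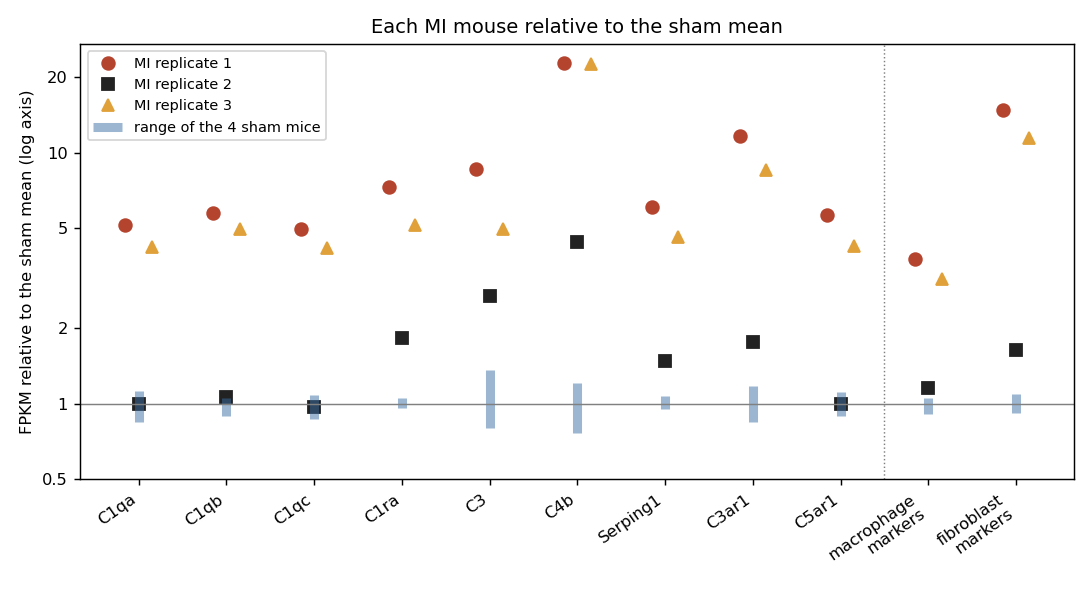
FPKM of each MI mouse divided by the sham mean (log axis) for the 9 genes and for the summed macrophage and fibroblast markers; the blue bars span the 4 sham mice. MI replicates 1 and 3 lie at 4.17 to 22.9 times the sham mean for the 9 genes, and MI replicate 2 ranges from 0.971 times for C1qc to 4.42 times for C4b.

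The order of the levels, compared per length, differed between the groups. In the sham mice it ran from C1qa (48.8 FPKM) and C1qb (46.3) through Serping1 (29.99), C3 (27.8) and C1qc (21.1) to C1ra (5.01), C4b (1.83), C5ar1 (1.49) and C3ar1 (1.26). The ranges of neighbours overlapped for C1qa and C1qb, for Serping1 and C3, for C3 and C1qc, for C4b and C5ar1 and for C5ar1 and C3ar1. In the MI mice C4b (30.4) was above C1ra (23.9) on average, and C3ar1 (9.18) was above C5ar1 (5.42) in 3 of 3 mice, where C5ar1 had been above C3ar1 in 4 of 4 sham mice. C4b was above C1ra in 2 of the 3 MI mice and in 0 of the 4 sham mice. The ranges of all neighbours in the order of the MI mice overlapped. The place of C5ar1 depends on its length. The values rest on 5562 bases, whereas GENCODE M21 gives 2570, and at the latter C5ar1 would stand at 3.23 FPKM in the sham mice and 11.7 in the MI mice on average, above C3ar1 in all 7 mice and above C4b in the sham mice. Ratios of 1 gene's FPKM between mice do not depend on the length, whereas values on the log2(FPKM + 1) scale do.

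**Figure D3:**
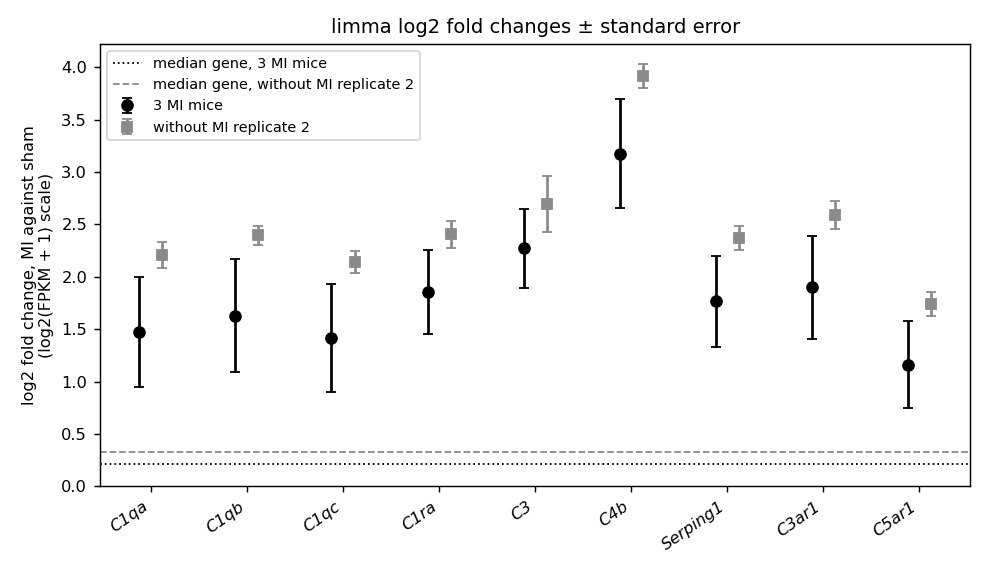
log2 fold changes of the 9 genes, MI against sham, from limma on log2(FPKM + 1), ± standard error, with 3 MI mice (black) and without MI replicate 2 (grey); the lines mark the median gene of each fit. All 9 lie above both lines, C4b highest at 3.18 and C5ar1 lowest at 1.16 with 3 MI mice.

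The balance between genes within a mouse was read from FPKM ratios, in which the scaling between libraries cancels, and 10 pairs were compared as differences of log2(FPKM + 1), in which it does not cancel fully. The tests were exact two-sided permutation tests, in which p cannot fall below 0.0571. The ratio of the receptors differed between the groups without overlap. The ratio of C3ar1 to C5ar1 was 0.775 to 0.893 in the sham mice and 1.73, 1.49 and 1.69 in MI replicates 1 to 3, so that MI replicate 2 stood with the other MI mice in this ratio although its C5ar1 was at the sham level. The log2 difference was 0.74 higher in the MI mice (exact p = 0.0571, 0.0816 adjusted over the 10 pairs). C4b against Serping1 showed the same kind of separation. Its ratio was 0.0488 to 0.0686 in the sham mice and 0.229, 0.182 and 0.298 in the MI mice, a log2 difference 1.41 higher (exact p = 0.0571, adjusted 0.0816). C3 exceeded C4b 12.2 to 19.7 times in the sham mice and 5.69, 9.24 and 3.36 times in the MI mice, a log2 difference of -0.90 as MI minus sham (exact p = 0.0571, adjusted 0.0816). That difference was -1.42 without a pseudocount, -0.55 without MI replicate 3 and -1.22 without MI replicate 2.

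Within C1q the chains kept a nearly fixed proportion. The ratio of C1qc to C1qb was 0.442 to 0.468 in the sham mice and 0.382 to 0.414 in the MI mice, and that of C1qa to C1qb was 0.995 to 1.12 and 0.895 to 0.983. Both ratios were lower in every MI mouse than in every sham mouse, by -0.21 and -0.16 on the log2 scale (exact p = 0.0571 for each, adjusted 0.0816). C1qb exceeded C3ar1 32.6 to 44.1 times in the sham mice and 18.2 to 22.3 times in the MI mice. The log2 difference was -0.27 on the scale with 1 added and -0.85 without a pseudocount (exact p = 0.0571 on both, adjusted 0.0816 with 1 added). C1qb against C5ar1 depended on the scale: the log2 difference was 0.47 higher in the MI mice with 1 added to each value (exact p = 0.0571, adjusted 0.0816), but 0.11 without a pseudocount (exact p = 0.229), where the ratios overlapped at 29.1 to 34.2 in the sham mice and 31.6 to 36.4 in the MI mice.

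The protease and its inhibitor differed little in balance, but the ratio did not overlap between groups. C1ra stood at 0.164 to 0.170 times Serping1 in the sham mice and at 0.201, 0.205 and 0.187 times in the MI mice, and the log2 difference was 0.09 with 1 added (exact p = 0.229, adjusted 0.254) and 0.24 without a pseudocount (exact p = 0.0571). The difference with 1 added was 0.037 without MI replicate 2 and 0.14 without MI replicate 3. C1qb against Serping1 overlapped between groups (log2 difference -0.14, exact p = 0.629, adjusted 0.629), with MI replicate 2 lowest of all 7 mice at a ratio of 1.11 and the others at 1.45 to 1.67. Without MI replicate 2 the difference was 0.027. C3 against Serping1 overlapped as well, at 0.740 to 1.17 in the sham mice and 1.00 to 1.68 in the MI mice (log2 difference 0.51, exact p = 0.114, adjusted 0.143), with a difference of 0.33 without MI replicate 2.

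**Figure D4:**
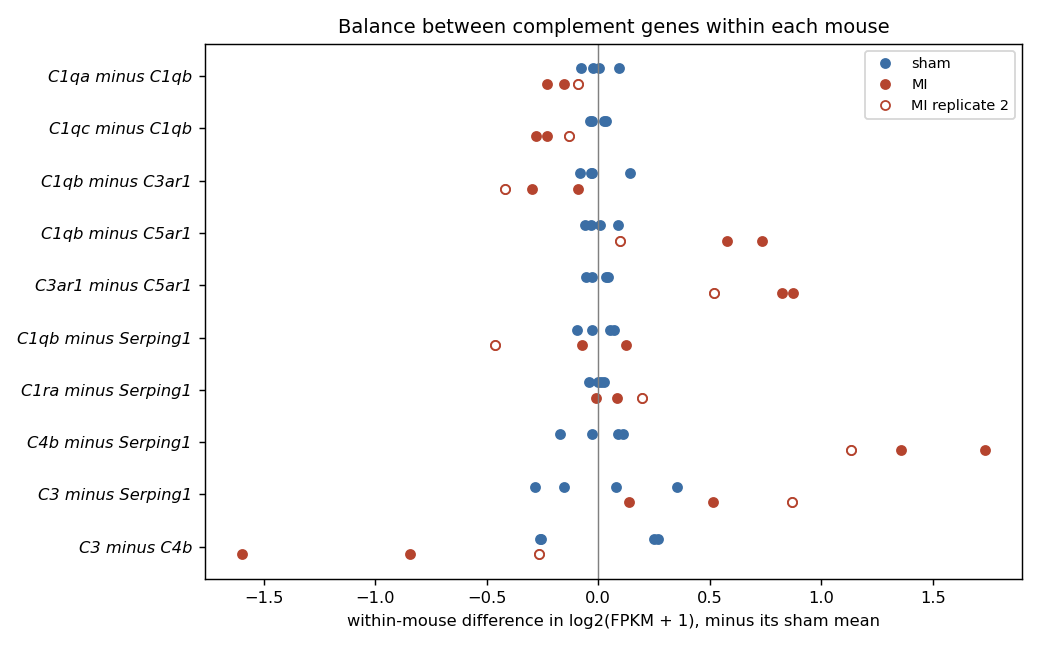
Within-mouse difference in log2(FPKM + 1) for the 10 pairs, with the sham mean of each pair set to 0 (horizontal axis, log2 units), in sham mice (blue), MI mice (red) and MI replicate 2 (open red). C4b minus Serping1 and C3ar1 minus C5ar1 lie to the right of the sham mice in all 3 MI mice, and C3 minus C4b spreads to the left.

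The rest of the pathway was read from a list of 58 complement genes that includes the 9. Of its other 49 genes, 20 passed the filter, 29 did not, and 3 of those (Mbl1, Mbl2 and C9) were listed at 0 in every mouse. Of the 20, 0 were past an adjusted p of 0.05, 11 were higher and 0 lower at an unadjusted p under 0.05 with a log2 fold change over 0.5 (17.8% and 4.8% of all genes), and 9 were above and 2 below sham in every MI mouse (16.1% and 9.0% of all genes). Their median log2 fold change was 0.98. These counts include C2 and Cfb, which reached 1 FPKM in no sham mouse, so that they passed the filter through the MI mice alone and their groups had to differ. Of the other 18 genes, 9 were higher by the unadjusted rule and 7 without overlap, with a median log2 fold change of 0.90, where among the 11309 genes with a sham mouse at the minimum the shares were 17.2% and 15.2%. Without MI replicate 2 the same 18 genes were tested, and 11 were higher and 3 lower (Vtn, Cd59a and C1qbp) at an adjusted p under 0.05 in limma, where 56.8% and 14.9% of all genes were. These counts are descriptive too, since that mouse was left out for its likeness to sham. Among the genes named below, the log2 fold change then went from 2.39 to 3.33 for Clu and from 1.41 to 2.23 for Fcna. It went from 1.21 to 1.85 for Cfp, from 0.43 to 0.83 for Cd93 and from -0.35 to -0.49 for C1qbp. Without MI replicate 1 instead, it was 1.83 for Clu, 0.74 for Fcna and 0.72 for Cfp. With 1 mouse left out, the value furthest the other way was 0.22 for Cd93 and -0.24 for C1qbp.

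In the classical pathway 3 further genes passed the filter. C1s1, the protease activated by C1r, stood at 5.47, 5.89, 5.55 and 2.63 FPKM in the sham mice and at 48.7, 11.1 and 29.4 in the MI mice (log2 fold change 2.21, SE 0.47), without overlap. C1rb, the near copy of C1ra, stood at 0.894 to 1.23 in the sham mice and at 7.90, 2.00 and 5.70 in the MI mice. C2, which joins C4b in the C3-cleaving enzyme, stood at 0.269 to 0.550 in the sham mice and at 2.81, 1.21 and 3.29 in the MI mice. The copy genes C4a and C1s2 did not pass the filter, at no more than 0.543 and 2.22 FPKM in any mouse. In MI replicate 2 the genes of the C1 proteases and C4b lay above the sham range, whereas of the recognition chains of C1q only C1qb did, and by a small margin.

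The lectin pathway, which uses sugar-binding proteins in place of C1q, had 3 of 9 genes past the filter. Masp1, a protease of the pathway, narrowly missed it, at 0.832 to 0.981 FPKM in the sham mice and at 4.02, 0.837 and 3.38 in the MI mice. Colec12, a scavenger receptor of the collectin family, was above sham in every MI mouse, at 4.37, 1.5001 and 4.12 FPKM against 1.23 to 1.36. Fcna, ficolin A, stood at 1.26 to 2.73 in the sham mice and at 17.8, 1.39 and 7.98 in the MI mice, so the groups overlapped. Colec11 overlapped too, at 5.97 to 9.73 against 8.12 to 9.97, and its log2 fold change of 0.19 changed sign with the scaling, to -0.11 with the median log-ratio.

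In the alternative pathway, which amplifies C3 cleavage, Cfb, the protease precursor factor B, stood at 0.167 to 0.384 FPKM in the sham mice and at 9.20, 2.55 and 3.05 in the MI mice. The log2 fold change was 2.04 (SE 0.34), and the filter fixed that the groups did not overlap. Cfp, properdin, which stabilises the C3-cleaving enzyme, stood at 3.87 to 4.89 and at 23.2, 4.03 and 14.0, with MI replicate 2 inside the sham range. Cfd, factor D or adipsin, a product of fat cells that cleaves factor B, was at 0.177 to 0.586 FPKM in the sham mice, at 78.1, 0.175 and 231 in the MI mice, from 5 to 16 fragments in the sham mice and 2143, 5 and 6870 in the MI mice. Only 2 mice reached an FPKM of 1, so Cfd was not tested. The summed FPKM of 5 adipocyte markers followed the same order, at 0.00701 to 0.244 in the sham mice and 14.5, 0.0406 and 48.4 in the MI mice, with Lep and Retn at 0 in every sham mouse and in MI replicate 2. Their part in the level of Cfd was not tested.

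Of 7 genes of the membrane attack complex, C7 was the only one to pass the filter, and it stood at 4.23 to 6.16 FPKM in the sham mice and 4.38 to 6.07 in the MI mice (log2 fold change 0.09, SE 0.15), with a sign that depended on the scaling (-0.18 with the median log-ratio). Hc, the mouse gene of C5, did not exceed 0.0795 FPKM in any mouse.

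Among the fluid-phase regulators, Clu, clusterin, which binds the forming membrane attack complex, stood at 67.7, 76.2, 69.1 and 70.1 FPKM in the sham mice and at 828, 102 and 624 in the MI mice (log2 fold change 2.39, SE 0.66). Every MI mouse was above sham. Vtn, vitronectin, went the other way, at 8.52 to 11.6 FPKM in the sham mice and 7.02, 6.66 and 6.94 in the MI mice. Its log2 fold change was -0.45 (SE 0.12). The sign held under every scaling tried, but the size ran from -0.29 with TPM to -0.75 with the median log-ratio.

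Among the membrane regulators, Cd55, which breaks up C3-cleaving enzymes, was above sham in every MI mouse, at 6.19, 2.02 and 5.10 FPKM against 1.35 to 1.64. Cd59a, which blocks the membrane attack complex, was below sham in every MI mouse, at 7.41 to 8.17 against 8.42 to 9.41 FPKM, a log2 fold change of -0.19 (SE 0.09) that was -0.015 after rescaling to TPM. Cr1l, the rodent regulator Crry, overlapped between groups at 3.04 to 4.16 and 3.89 to 4.35 FPKM, and the sign of its log2 fold change of 0.16 depended on the scaling, with -0.10 under the median log-ratio.

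Of the other receptors and binding proteins, Itgb2, the beta chain of the leukocyte integrins that bind C3 fragments, stood at 1.66 to 1.99 FPKM in the sham mice and at 12.5, 1.96 and 8.21 in the MI mice, with MI replicate 2 inside the sham range. Its partner Itgam stood at 1.04 to 1.31 and at 4.21, 1.51 and 4.49, without overlap. Cd93, an endothelial surface protein once described as a C1q receptor, overlapped at 18.3 to 21.3 and at 36.3, 15.0 and 35.9. Its log2 fold change of 0.43 was 0.10 under the median log-ratio. C1qbp, a mitochondrial protein that can bind C1q, stood at 28.7 to 32.8 FPKM in the sham mice and at 20.6, 29.6 and 22.6 in the MI mice. Its log2 fold change was -0.35 (SE 0.14), and it ran from -0.16 with TPM to -0.67 under the median log-ratio.

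**Figure D5:**
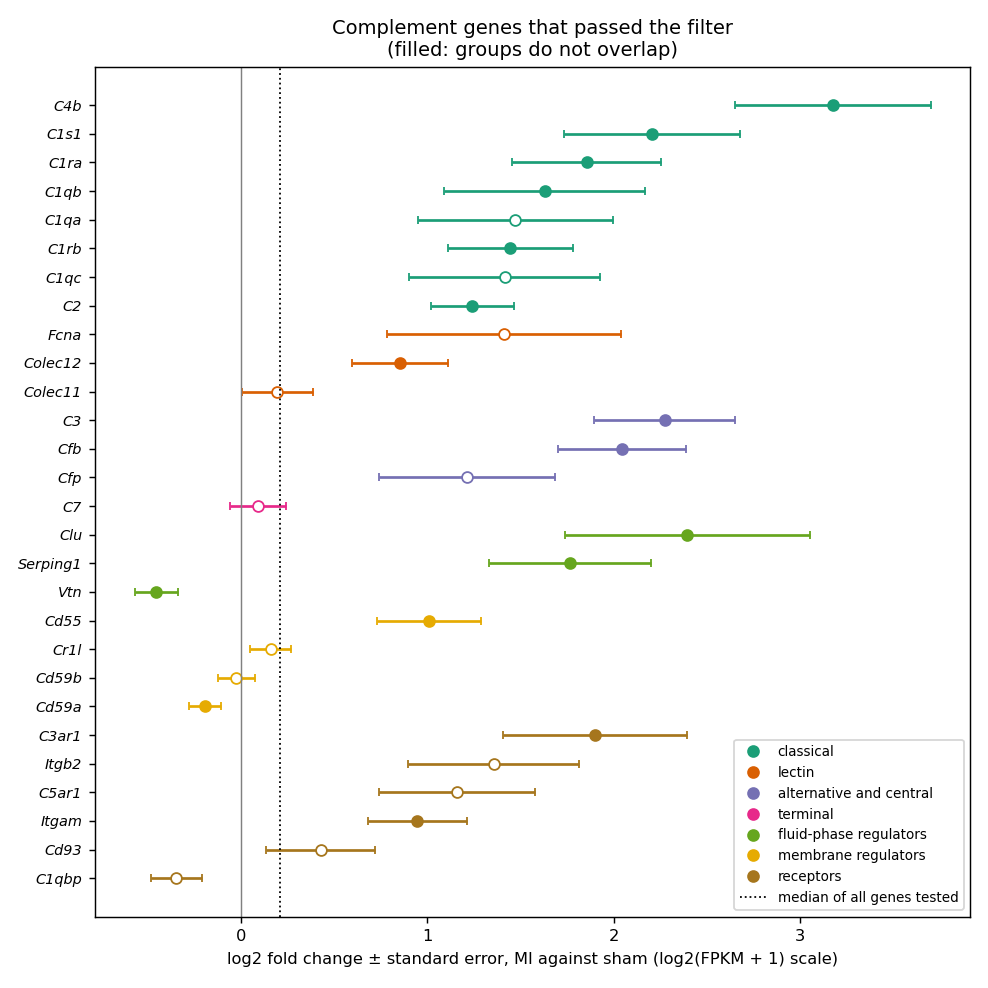
log2 fold change ± standard error (horizontal axis, log2(FPKM + 1) scale) of 28 complement genes that passed the filter, coloured by role; filled points have no overlap between groups, and the dotted line is the median of all genes tested at 0.21. The classical pathway genes lie between 1.24 for C2 and 3.18 for C4b, while C7, Colec11, Cr1l and Cd59b lie near or below the median gene.

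The genes with the most similar profile over the 7 mice were sought among 11254 named genes by the root mean square distance between log2 changes from the sham mean. Nearest to the mean of the C1q chains were Laptm5, a lysosomal membrane protein of leukocytes (distance 0.049), and Fzd2, a Wnt receptor (0.065). In the sham mice Laptm5 stood at 3.70 to 4.63 FPKM, and in the MI mice at 27.4, 4.71 and 22.3. Nearest to Serping1 were Fbln1, the matrix protein fibulin 1 (0.074), Rhou (0.075) and Scpep1 (0.094), and Rhou and Fbln1 were also nearest to C1ra (0.109 and 0.111), followed by Anxa2 (0.146). C3ar1 was nearest to Cd300c2 (0.067), Gm7665 (0.089) and Angptl4 (0.109), and C5ar1 to Tnfrsf1a (0.061), Oas1a (0.066) and Nckap1l (0.067). C3 and C4b had no comparably close neighbour: the nearest was Mt2 (0.254) for C3 and Sfrp1 (0.313) for C4b. Anxa8 (0.340) and Angptl4 (0.350) followed for C3, and Ccl8 (0.367) and Mgp (0.410) for C4b. Cd300c2, Nckap1l, Anxa8 and Ccl8 reached 1 FPKM in no sham mouse. They entered the search through the MI mice alone, so their groups had to differ. These distances describe 7 mice that share the contrast of MI and sham, and no test was made of them.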

How the data were processed

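Myocardial RNA of 7 mice (4 sham, 3 MI, grouped by the treatment label) was sequenced, and the authors deposited 1 table of FPKM values, a column per mouse (0 left unused). The submitters' processing notes name CASAVA 1.8, HISAT2, SAMtools 1.3.1, edgeR and the build mm10; the annotation, the counting program and its strand setting are not given in the sources used here. Column totals differed, so the values are not TPM.

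Symbols for 52073 of 56980 identifiers (91.4%) and positions came from GENCODE M21 on GRCm38. Whole fragments were recovered from the steps of the FPKM values for 30503 of 30504 genes above 0, within 0.05 of a whole number in every mouse. The length behind the values equalled the M21 exon length for C1qa (1040 bases) but not for C3 (5680 against 5143) or C5ar1 (5562 against 2570), so levels per length depend on the annotation used.

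Genes reaching 1 FPKM in 3 or more mice entered the test as log2(FPKM + 1) with limma 3.58.1 in R 4.3.3 (lmFit, eBayes with trend, no covariates), with Benjamini-Hochberg adjustment over all 11431. Pair differences used exact permutation tests over the 35 splits of the mice. Other steps used Python 3.11.15, pandas 2.3.3 and NumPy 2.4.6. Scripts were tested on simulated data. FPKM differ from counts, so no count test was run; voom weights on the recovered fragments were an alternative. P-values measure the spread between these mice, and 3 MI mice limit the precision more than counting error does.

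The members, the gene lists and the tests were chosen with earlier results of these data known. Named genes are the 9 members, in each role class of the wider list up to 3 others with the highest mean FPKM or those needed to account for a small count, the 3 nearest profiles of each member and of the C1q mean, and marker genes; 2 genes that meet this rule are not reported here. C4a, C1s2, Masp1, Hc, Cd59b, Vsig4 and Cr2 were named after their values were seen.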

Additional observations from a re-analysis of the deposited data

Results flagged for a closer look

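In 3 of 49 sets of 4 sham values, 1 mouse lay so far from the rest that its gap to the nearest took up more of the range than the Dixon critical value for 4 values allows. Chance passes that value in about 1 of 20 sets, or 2.45 of 49. The gap share was 0.871 for C1s1, where sham replicate 4 was lowest at 2.63 FPKM and the other sham mice stood at 5.47 to 5.89. It was 0.871 for the summed neutrophil markers, where sham replicate 2 was highest at 1.33 FPKM and the others stood at 0.355 to 0.481. It was 0.887 for the summed hepatocyte markers, where sham replicate 4 was highest at 6.47 FPKM and the others stood at 0.873 to 1.504.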

How the results depend on the processing

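The log2 fold changes of the 9 genes kept their direction under all 18 alternatives, from 0.78 (C5ar1 without MI replicate 1) to 3.92 (C4b without MI replicate 2). At an adjusted p under 0.05, 9 of the 9 were higher with sample weights (66.8% of all genes), and the count ran from 0 to 9 when 1 mouse was left out, reaching 9 without MI replicate 2 (56.8%). The sample weights were 436.7, 0.0906 and 0.0217 for MI replicates 3, 1 and 2, so the MI side of that fit is in effect 1 mouse. At an unadjusted p with a log2 fold change over 0.5, the count ran from 5 to 9, with 5 without MI replicate 1 and 5 without MI replicate 3 (5.11% and 5.12% of all genes, against 17.8%). Of the 20 other complement genes, sample weights put 15 above and 3 below sham at that adjusted threshold (66.8% and 20.3% of all genes). Leaving out 1 mouse gave 0 to 11 higher and 0 to 3 lower, the highest without MI replicate 2 (56.8% and 14.9% of all genes). For both lists the adjusted counts without MI replicate 2 are descriptive, since its likeness to sham singled that mouse out. By the unadjusted rule 18 were higher with no filter (46 tested; 9.33% of all genes), and 7 to 11 with 1 mouse left out (7 without MI replicate 1 or 3, at 5.11% and 5.12%). Lower by that rule were 2 with quantile normalization and 2 with the median log-ratio (11.3% and 11.7% of all genes), 1 with a pseudocount of 0.1 (6.24%), 1 with mitochondrial genes left out (7.16%), and 0 to 1 with 1 mouse left out (1 without sham replicate 3, 3.85%). The causes were not tested.

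The median gene moved from 0.21 to 0.41 with TPM, -0.076 with quantile normalization and -0.045 with the median log-ratio. The sign turned for Colec11 (-0.085 quantile, -0.11 median log-ratio), Cr1l (-0.14 and -0.10) and C7 (-0.20 and -0.18, -0.028 with mitochondrial genes left out, -0.093 with sample weights, and -0.0076 to 0.19 with 1 mouse left out). C1qb minus Serping1 ran from -0.27 to 0.027 with 1 mouse left out, turning without MI replicate 2. The other 9 pairs kept their direction, though C3 minus C4b ran from -1.22 to -0.55 and C1ra minus Serping1 from 0.037 to 0.14 with 1 mouse left out.

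No pairing by replicate number was visible: deviations of same-numbered mice from their group means correlated at 0.074, -0.016 and -0.080. Mice with different numbers correlated at -0.091 to 0.081, and so few mice cannot exclude a pairing. With the replicate number as a block, 0 of the 9 passed an adjusted p of 0.05 (each at 0.240 in limma), nor did any of all genes tested. By the unadjusted rule 9 were higher (13.4% of all genes), and C4b stood at 3.24. Counting error is small here, since the lowest of the 9 rested on 99 fragments in a sham mouse. The precision is limited by 3 MI mice with unlike values.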

Other observations

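The summed FPKM of 5 B and T cell markers was 0.527 to 0.621 in the sham mice and 26.2, 0.464 and 4.43 in MI replicates 1 to 3, led by Cd79a, a chain of the B cell receptor complex, at 16.9, 0.243 and 2.30. Cr2, the complement receptor of B cells, followed the same order at 0.470, 0 and 0.0909 FPKM, from 124, 0 and 26 fragments, and did not exceed 0.0110 FPKM in any sham mouse. Vsig4, a complement receptor of resident macrophages, stood at 0.413 to 0.477 FPKM in the sham mice and at 3.16, 0.594 and 1.54 in the MI mice, with every MI mouse above sham. None of these genes passed the filter, so none was tested, and they were chosen for description after their values were seen.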
